A study of Homo sapiens with 6 samples.

Results

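The genes described here are the 4 receptors and 6 ligands of the epidermal growth factor (EGF) receptor family, EGFR, ERBB2, ERBB3, ERBB4, EGF, TGFA, AREG, HBEGF, BTC and EREG. Members were the Affymetrix probe sets (groups of short probes read as one value) that the platform annotation assigns to a single one of these symbols. They came to 21 of the 22215 probe sets that were not array controls, 12 for the receptors and 9 for the ligands, and covered 9 of the 10 genes, of 11963 genes named on the array. AREG had 0 probe sets by this rule and was not analysed here. EGFR had 6 probe sets, HBEGF and TGFA 3 each, ERBB2, ERBB3 and ERBB4 2 each, and EGF, BTC and EREG 1 each. No filter on low values was applied, so every probe set is reported.

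The samples were 6 arrays of the established lung adenocarcinoma cell line A549, in 3 groups of 2. One group was transfected with a pCMV5 plasmid carrying human PIAS3, a SUMO ligase known to inhibit STAT3, and another with an siRNA against STAT3, with RNA taken 48 h after transfection. The third group, the control, was stimulated with EGF and, per the labels, untreated by transfection. The series' design text gives EGF in serum-free medium to all groups, whereas only the control titles name it. No empty plasmid or non-targeting siRNA group was among the samples, so transfection itself and the plasmid or siRNA cannot be told apart. No harvest time was recorded for the control arrays. Any difference from them in harvest time or EGF exposure likewise cannot be told apart from the treatments. The labels do not state whether arrays of one group stem from separate cultures, so p-values cover the array-to-array spread alone, possibly technical.

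EGF family ligands are made as membrane-bound precursors that ADAM proteases release. A ligand brings 2 receptors together, and their kinase domains start RAS, ERK, PI3K and STAT signalling. ERBB2 has no known ligand of its own and ERBB3 a weak kinase, so both work mainly in pairs with other members. Several of the ligand genes are themselves induced by EGF receptor signalling, and the family is well known as a driver in lung adenocarcinoma.

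Array medians lay between 6.63 and 6.72 on the log2 scale. The epithelial keratins KRT8 and KRT18 read at least 12.39 on every array, and the leukocyte markers PTPRC 3.85 to 3.95 and CD3E 6.63 to 7.09. The 3 bacterial trp control probe sets, which stand here for an absent transcript, read 3.26 to 3.93, near PTPRC and below CD3E on all 6 arrays. The 5 epithelial markers summed to 14.51 and 14.37 in the controls and 14.27 to 14.36 in the transfected arrays. Single ones differed between control and transfected arrays. KRT19 read 11.16 and 11.02 in the controls, 9.02 and 9.34 with PIAS3 and 10.76 and 9.42 with the siRNA. CDH1, the epithelial cadherin, read 8.31 and 8.19, 9.54 and 9.14, and 8.37 and 8.60 in that order, and EPCAM 7.24 and 7.22, 6.36 and 6.78, and 7.12 and 6.04. The 4 fibroblast markers summed to 9.36 and 9.31 in the controls and 9.18 to 9.43 in the transfected arrays, the 4 endothelial markers to 7.29 and 7.41 against 7.29 to 7.44, and the 2 measured leukocyte markers to 6.88 and 7.06 against 6.83 to 7.25 (log2 of summed levels). STAT3, the siRNA's target, read 10.23 and 9.94 with the siRNA, 10.18 and 9.70 with PIAS3 and 10.50 and 10.43 in the controls by its brighter probe set. The other STAT3 probe set read 9.78 and 9.62, 9.62 and 9.24, and 10.02 and 10.03 in that order. The differences from control were -0.38 and -0.33 with the siRNA (limma adjusted p = 0.9998 for both). With PIAS3 they were -0.53 and -0.60 (limma adjusted p = 0.254 and 0.145). The lower STAT3 RNA with the siRNA was thus small and not called. PIAS3 replicate 1 stood apart, since MX1, an interferon-induced gene, read 10.61 there and at most 5.05 elsewhere, and poly-A spike-ins read 1.38 above the control mean. STAT3 siRNA replicate 2 differed less from PIAS3 replicate 2 (SD over probe sets 0.19) than from its own replicate (0.25). The actin difference between 3' and 5' probe sets, a sign of RNA quality, was 0.12 and 0.10 in the controls, 0.43 and 0.28 with PIAS3 and 0.16 and 0.23 with the siRNA. The same difference for GAPDH was 0.36 and 0.29, 0.40 and 0.37, and 0.29 and 0.40, with overlap between the controls and the siRNA arrays. The actin difference and the markers KRT19, CDH1 and EPCAM separated the control from the transfected arrays, and their part in the results was not tested. For KRT19 and EPCAM the siRNA pair was split, with replicate 1 near the controls and replicate 2 near or below the PIAS3 arrays. KRT8 and KRT18 overlapped between the PIAS3 and control arrays.

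None of the 21 probe sets passed the test in any comparison (limma with Benjamini-Hochberg adjustment over all 22215 probe sets, threshold 0.05). Calls were few for all genes: 0.0990% of probe sets passed for PIAS3 against control, 0.00450% for the siRNA against control and 0% for PIAS3 against the siRNA. The lowest member values relative to the test's spread belonged to the ligands HBEGF and EREG and to 1 probe set of EGFR, all below control with both transfections. ERBB3 stood above control with PIAS3 by its brighter probe set. Levels of EGF, BTC and ERBB4 were at or close to those of an absent transcript.

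**Figure D1:**
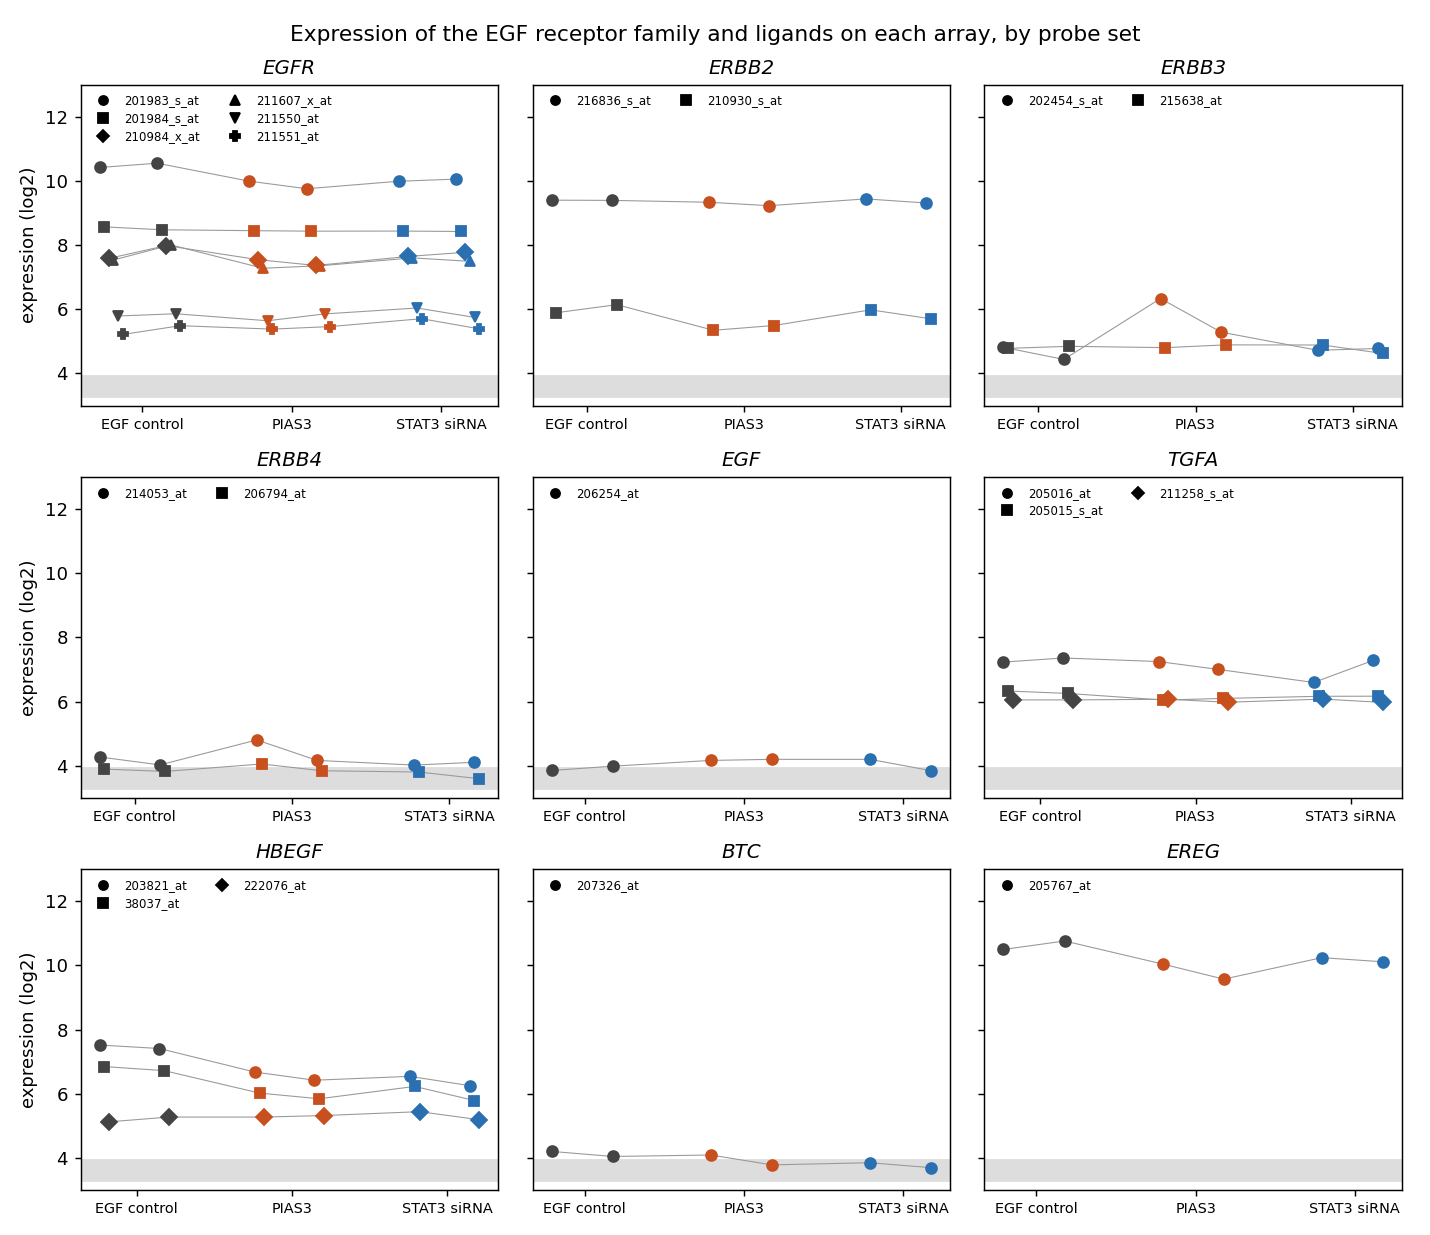
Expression (log2, vertical axis) on each of the 6 arrays, with a panel per gene, a marker shape per probe set and a colour per group (replicate 1 left, replicate 2 right). Grey lines join the arrays of a probe set and the grey band is the range of the bacterial trp control probe sets (3.26 to 3.93). HBEGF by 2 of its 3 probe sets, EREG and the brightest EGFR probe set have every transfected array under both control arrays. EGFR 201984_s_at and TGFA 205015_s_at do too, with differences of only -0.08 to -0.22. Taken singly, 24.4% of all probe sets lay below both controls with PIAS3 and 19.1% with the siRNA. The share with both was not computed.

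HBEGF encodes heparin-binding EGF-like growth factor, a ligand of EGFR and ERBB4 that is also the receptor of diphtheria toxin. Its brightest probe set (203821_at) read 7.52 and 7.41 in the controls, 6.68 and 6.42 with PIAS3, and 6.54 and 6.25 with the siRNA. All 4 transfected arrays lay below both controls, and the PIAS3 and siRNA arrays overlapped. With PIAS3 the log2 value lay -0.92 ± 0.14 from the control mean (SE, 2 arrays per group; 1.89-fold lower, 95% interval -1.26 to -0.58), at a limma adjusted p of 0.0792. With the siRNA it was -1.07 ± 0.14 (2.10-fold lower, -1.41 to -0.73), at a limma adjusted p of 0.238. Unadjusted, this probe set ranked 54 among lower probe sets by p in the first comparison and 11 in the second. Both comparisons use the same control arrays. In such bulk RNA, fewer cells expressing a gene and less RNA per cell cannot be told apart.

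A second HBEGF probe set (38037_at) read 6.84 and 6.72 in the controls, 6.02 and 5.84 with PIAS3 and 6.23 and 5.79 with the siRNA, again without overlap between controls and transfected arrays. Its differences were -0.85 ± 0.16 and -0.78 ± 0.16, at adjusted p-values of 0.0973 and 0.532. The third HBEGF probe set (222076_at) showed no such difference, at 5.12 and 5.27 in the controls, 5.27 and 5.32 with PIAS3 and 5.44 and 5.19 with the siRNA. Its differences were 0.10 ± 0.13 and 0.12 ± 0.13, so the HBEGF probe sets disagree, and where their probes lie on the transcript was not analysed here. With the mean of its 3 probe sets, HBEGF differed from control by -0.56 with PIAS3 (adjusted p = 0.145) and by -0.58 with the siRNA (adjusted p = 0.682). Between PIAS3 and the siRNA, HBEGF differed by 0.15 ± 0.14 (-0.19 to 0.49), -0.08 ± 0.16 (-0.46 to 0.31) and -0.02 ± 0.13 (-0.31 to 0.28) in these probe sets. In a fit of PIAS3 and control arrays alone, 203821_at and 38037_at passed, at limma adjusted p-values of 0.0450 and 0.0440. In that fit 1.18% of all probe sets passed, against 0.0990% in the main fit. Leaving out PIAS3 replicate 1 gave -1.04 and -0.94. Leaving out PIAS3 replicate 2 gave -0.79 and -0.76, which describes replicate 1 alone, the array with raised interferon-induced genes.

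EREG encodes epiregulin, a ligand of EGFR and ERBB4 made by many carcinomas. Its single probe set read 10.50 and 10.76 in the controls, 10.04 and 9.57 with PIAS3 and 10.24 and 10.11 with the siRNA. The 3 groups did not overlap, with PIAS3 lowest and the siRNA between. The difference from control was -0.82 ± 0.18 (-1.24 to -0.41) with PIAS3 and -0.45 ± 0.18 (-0.87 to -0.04) with the siRNA, at limma adjusted p-values of 0.117 and 0.9998. The direct difference between PIAS3 and the siRNA was -0.37 ± 0.18 (-0.78 to 0.04, adjusted p = 0.628). Without PIAS3 replicate 1 the difference from control was -1.06 (adjusted p = 0.166), and without replicate 2 it was -0.59 (0.0803).

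TGFA encodes transforming growth factor alpha, a ligand of EGFR. Its brightest probe set (205016_at) read 7.23 and 7.36 in the controls, 7.25 and 7.001 with PIAS3 and 6.59 and 7.29 with the siRNA, so the siRNA arrays differed from each other by more than the groups did. The other TGFA probe sets stayed between 6.05 and 6.33 (205015_s_at) and between 5.97 and 6.08 (211258_s_at) on all arrays. The 205015_s_at probe set read 6.33 and 6.25 in the controls against 6.05 and 6.10 with PIAS3, a difference of -0.22 ± 0.10 (-0.46 to 0.02, limma adjusted p = 0.407). With the siRNA it read 6.16 and 6.17, also below both controls, a difference of -0.13 ± 0.10 (-0.37 to 0.11). For the others the differences from control were -0.17 ± 0.22 and -0.03 ± 0.11 with PIAS3, and -0.35 ± 0.22 and -0.03 ± 0.11 with the siRNA.

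BTC, the ligand betacellulin, read 4.20 and 4.04 in the controls, 4.09 and 3.78 with PIAS3 and 3.85 and 3.69 with the siRNA. EGF itself read 3.85 and 3.98, 4.16 and 4.20, and 4.20 and 3.84 in the same order. The trp control probe sets reached 3.93, above 3 of the 6 values of BTC and 2 of those of EGF, so differences of these ligands are between values at or near background. The BTC difference with the siRNA was -0.35 ± 0.14 (adjusted p = 0.9998), and the EGF difference with PIAS3 0.26 ± 0.14 (adjusted p = 0.470). The EGF probe set measures the cells' own transcript, not the EGF protein given to them.

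EGFR encodes the founding receptor of the family. Its brightest probe set (201983_s_at) read 10.42 and 10.56 in the controls, 10.00 and 9.76 with PIAS3, and 10.00 and 10.06 with the siRNA. The controls were above all 4 transfected arrays, and the transfected groups overlapped. The difference from control was -0.61 ± 0.12 (-0.90 to -0.32, 1.53-fold lower) with PIAS3 and -0.46 ± 0.12 (-0.75 to -0.17, 1.38-fold lower) with the siRNA, at limma adjusted p-values of 0.106 and 0.771. PIAS3 and the siRNA differed by -0.15 ± 0.12 (-0.44 to 0.14). Without PIAS3 replicate 1 the PIAS3 difference was -0.73, and without replicate 2 it was -0.49.

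The other EGFR probe sets gave smaller differences or none. The 201984_s_at probe set read 8.57 and 8.48 in the controls and 8.43 to 8.45 in the transfected arrays, with differences of -0.08 ± 0.10 and -0.09 ± 0.10. Its intervals, -0.32 to 0.16 with PIAS3 and -0.33 to 0.15 with the siRNA, leave out the -0.61 and -0.46 of the brightest probe set. Probe sets 211607_x_at and 210984_x_at, whose suffix marks probes that may match other transcripts, gave -0.45 ± 0.16 and -0.33 ± 0.16 with PIAS3 and -0.22 ± 0.16 and -0.07 ± 0.16 with the siRNA. Both separated the control arrays from each other, at 7.54 and 8.01 and at 7.59 and 7.99. The 2 dimmest, 211550_at and 211551_at, gave -0.08 ± 0.14 and 0.07 ± 0.15 with PIAS3 and 0.07 ± 0.14 and 0.20 ± 0.15 with the siRNA. With the mean of all 6 probe sets, EGFR differed from control by -0.25 with PIAS3 (adjusted p = 0.409) and by -0.10 with the siRNA.

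ERBB2, the receptor also called HER2, read 9.41 and 9.40 in the controls, 9.34 and 9.23 with PIAS3 and 9.45 and 9.32 with the siRNA by its brighter probe set. These differences, -0.12 ± 0.11 (-0.37 to 0.14) and -0.02 ± 0.11 (-0.28 to 0.23), were within about 1 standard error of 0. The dimmer ERBB2 probe set (210930_s_at) read 5.90 and 6.15 in the controls, 5.35 and 5.50 with PIAS3 and 5.98 and 5.70 with the siRNA. It lay lower in both PIAS3 arrays than in the other 4, by -0.60 ± 0.15 against control (adjusted p = 0.143) and -0.42 ± 0.15 against the siRNA (-0.76 to -0.08, adjusted p = 0.607). The brighter probe set gave -0.09 ± 0.11 against the siRNA, so the 2 ERBB2 probe sets gave unlike values. Their mean differed from control by -0.36 with PIAS3 (adjusted p = 0.248) and by -0.10 with the siRNA.

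ERBB3, the kinase-poor receptor that binds neuregulins, was the member furthest above control. Its brighter probe set (202454_s_at) read 6.34 and 5.29 with PIAS3, 4.82 and 4.44 in the controls and 4.72 and 4.78 with the siRNA. Both PIAS3 arrays were above the other 4, but they differed from each other with an SD of 0.74. The difference from control was 1.19 ± 0.31 (0.46 to 1.91, adjusted p = 0.164) and that from the siRNA 1.06 ± 0.31 (0.34 to 1.79, adjusted p = 0.607). The higher value came from PIAS3 replicate 1, the array with raised interferon-induced genes. Without that array the difference from control was 0.66 (adjusted p = 0.278), and without PIAS3 replicate 2 it was 1.71 (adjusted p = 0.00873), which describes replicate 1 alone. The other ERBB3 probe set stayed between 4.62 and 4.89 on all arrays, with a difference of 0.03 ± 0.12 from control with PIAS3. Both ERBB3 probe sets were dim. They lay above the trp control range on every array but under the 40th percentile by mean, the cut of the alternative filter on low values. With the mean of both probe sets, ERBB3 with PIAS3 differed by 0.61 from control (adjusted p = 0.184) and by 0.58 from the siRNA (adjusted p = 0.607).

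ERBB4, a neuregulin receptor with an active kinase, read 4.02 to 4.80 by 1 probe set and 3.59 to 4.05 by the other. The higher reading of 4.80 was again in PIAS3 replicate 1, and the dimmer probe set exceeded the trp control range on 1 of 6 arrays. The differences from control were 0.34 ± 0.21 and 0.09 ± 0.13 with PIAS3 and -0.09 ± 0.21 and -0.16 ± 0.13 with the siRNA. The first of these rested on 1 array, being 0.0165 without PIAS3 replicate 1 and 0.66 without PIAS3 replicate 2.

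**Figure D2:**
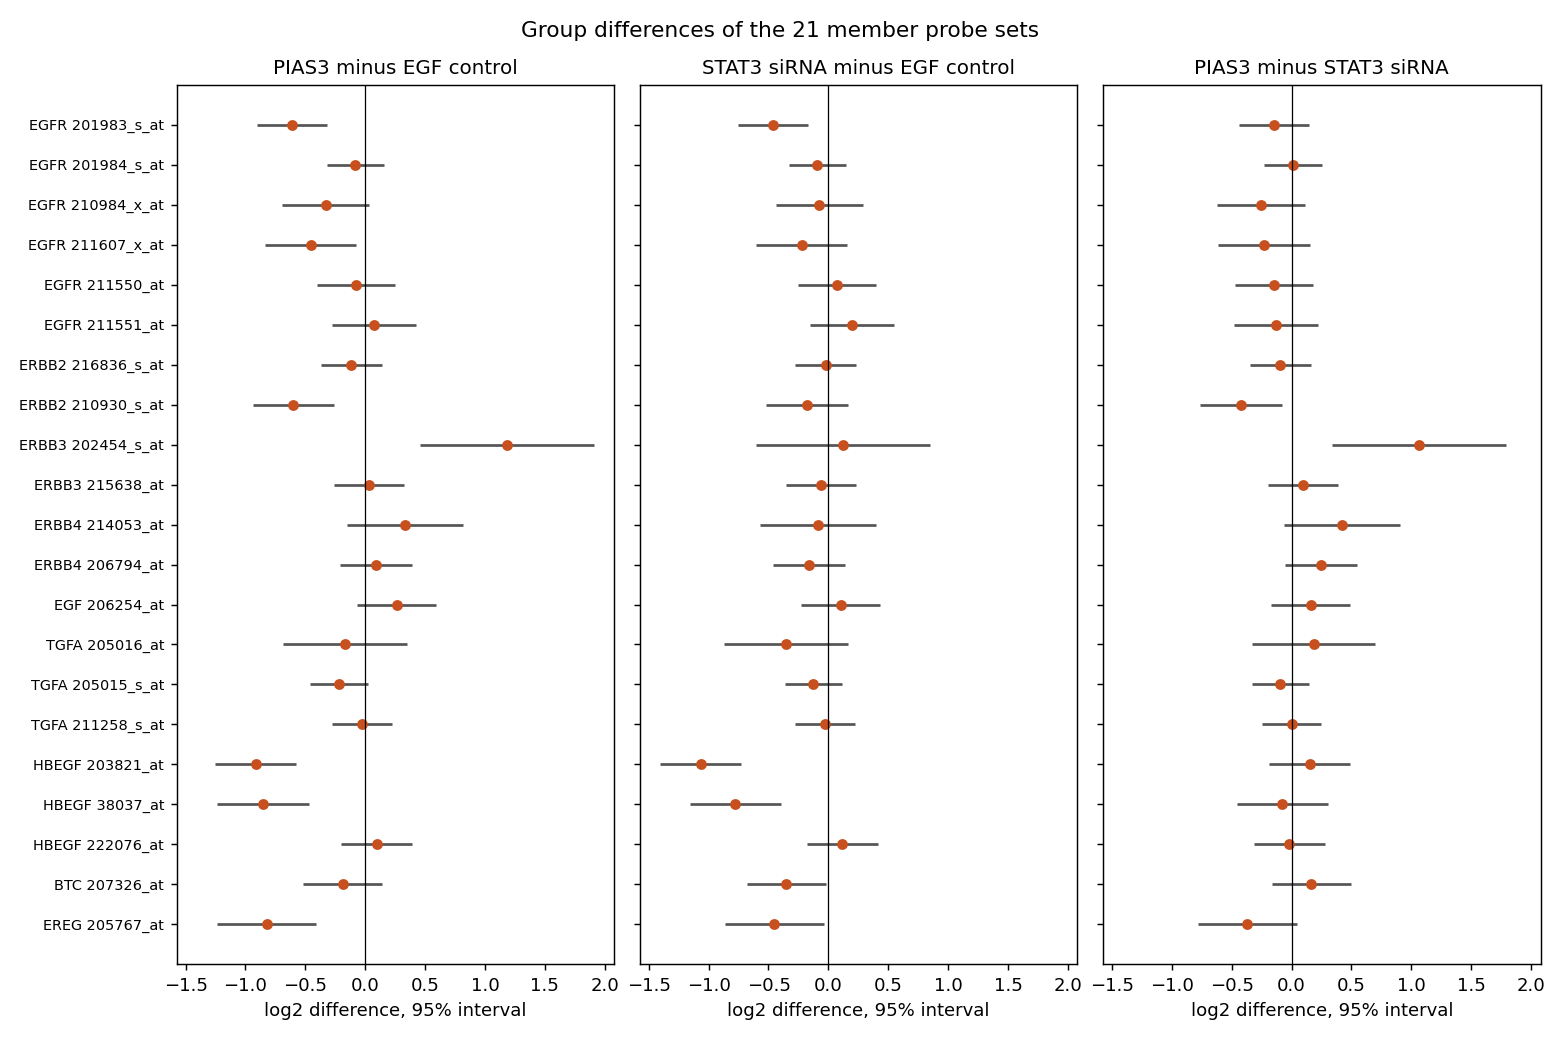
Log2 difference between groups (horizontal axis) for each of the 21 probe sets (rows) in the 3 comparisons (panels), with points for the limma estimates and bars for their 95% intervals (n = 2 per group). HBEGF lies near -0.92 and -1.07 for its brightest probe set against control and near 0 between PIAS3 and the siRNA, and ERBB3 stands out to the right in both panels with PIAS3.

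Counted over probe sets, 6 of 21 members were lower with PIAS3 at an unadjusted p under 0.05 (HBEGF 2, EGFR 2, EREG 1 and ERBB2 1), where 7.86% of all probe sets were, and 1 was higher (ERBB3), where 6.0% were. With the siRNA, 5 were lower (HBEGF 2, EGFR, EREG and BTC 1 each) against 2.77% of all, and 0 were higher against 2.08%. Both PIAS3 arrays lay below both controls for 10 of 21, against 24.4% of all probe sets, and above them for 2, against 21.0%. For the siRNA these counts were 8, against 19.1%, and 0, against 18.3%. Between PIAS3 and the siRNA, 2 members had an unadjusted p under 0.05, against 8.10%, and 8 did not overlap, against 35.0%, which is close to the background. Probe sets of 1 gene share their transcript and both comparisons share the controls, so these counts are not of independent events. The median log2 difference of the 21 was -0.12 with PIAS3 and -0.09 with the siRNA, against -0.01 and -0.00 over all probe sets.

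By their brightest probe set, HBEGF, EREG and EGFR were the 3 member genes lowest against control. By the mean of all its probe sets, EGFR gave -0.25 with PIAS3, above the -0.36 of ERBB2. With the siRNA that mean gave -0.10, above the -0.17 of TGFA. The upstream sequences of HBEGF, EREG and EGFR in RefSeq (build GRCh38.p14) are shown because these brightest probe sets were lower in the same arrays. Their likeness was not computed. Each is the 250 bases before a start site, 5' to 3' on the gene's strand, with capitals for matches on either strand to the GC box GGGCGG, bound by SP1-type factors, to the TATA box TATAAA, to the AP-1 site TGANTCA or to the STAT site TTCNNNGAA.
HBEGF: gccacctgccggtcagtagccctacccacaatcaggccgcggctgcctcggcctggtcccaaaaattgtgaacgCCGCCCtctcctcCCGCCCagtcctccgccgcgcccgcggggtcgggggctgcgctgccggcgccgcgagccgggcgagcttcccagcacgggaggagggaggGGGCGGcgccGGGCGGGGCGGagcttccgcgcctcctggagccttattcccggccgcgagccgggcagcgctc
EREG: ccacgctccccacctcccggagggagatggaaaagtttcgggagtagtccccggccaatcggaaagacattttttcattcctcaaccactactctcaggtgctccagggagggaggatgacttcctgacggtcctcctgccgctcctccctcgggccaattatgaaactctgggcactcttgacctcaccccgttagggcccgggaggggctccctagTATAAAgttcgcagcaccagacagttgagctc
EGFR: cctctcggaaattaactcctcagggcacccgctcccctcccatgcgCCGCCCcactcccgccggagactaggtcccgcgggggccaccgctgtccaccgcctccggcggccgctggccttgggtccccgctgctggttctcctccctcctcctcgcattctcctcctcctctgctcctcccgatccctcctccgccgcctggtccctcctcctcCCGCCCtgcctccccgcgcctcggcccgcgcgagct
The HBEGF sequence (chr5:140346604-140346853, minus strand) held 5 GC boxes, 2 of them overlapping, and 76.4% G or C. The EREG sequence (chr4:74364895-74365144, plus strand) held a TATA box at position -32, no GC box and 58.0% G or C. The EGFR sequence (chr7:55018767-55019016, plus strand, the first of 2 starts listed) held 2 GC boxes, no TATA box and 73.6% G or C. The window of the other EGFR start held 2 AP-1 sites and 2 TATA boxes. None of the 3 printed windows held the AP-1 or the STAT letters. Among 35116 promoters of the same length, 42.6% held the GC box, 10.7% the TATA box, 6.57% the AP-1 site and 6.57% the STAT site. In the RefSeq gene order on chromosome 4, EREG, AREG and BTC follow one another.

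The genes whose profile over the 6 arrays was most like that of HBEGF, by the root mean square difference after centring each on its own mean, were EGR3 (0.0564 log2), GADD45A (0.0714), GPNMB (0.0995) and NFE2L3 (0.115). EGR3, an early growth response factor, read 4.50 and 4.48 in the controls, 3.72 and 3.49 with PIAS3 and 3.53 and 3.40 with the siRNA, the lower values being within the trp control range. GADD45A, a stress-induced growth arrest gene, read 9.82 and 9.74, 9.18 and 8.84, and 8.87 and 8.68 in the same order. Most like EGFR were HMGA2 (0.0577), an architectural chromatin protein, AKAP1 (0.0792), SEMA3C (0.0984) and L1CAM (0.0994), a cell adhesion molecule. HMGA2 read 8.67 and 8.81 in the controls, 8.18 and 8.04 with PIAS3 and 8.37 and 8.31 with the siRNA. These are descriptions over 6 arrays, without a test.

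Other genes of the pathway were taken from lists, each gene by its brightest probe set, and 0 of the genes in these lists passed the test over all probe sets in any comparison. Each list's counts at an unadjusted p under 0.05 stand beside the share of all probe sets past that threshold in the same direction. That share includes dim probe sets, so it is not matched to brightest probe sets. Of the 13329 probe sets left by the filter on low values, 1427 were lower and 990 higher with PIAS3. With the siRNA 416 were lower and 335 higher. Of the other ErbB ligands, 2 of 5 were measured, and 1 (NRG1) was lower at that threshold with PIAS3 (7.86% of all probe sets) and 0 with the siRNA (2.77%). NRG1, a neuregulin that binds ERBB3 and ERBB4, read 10.32 and 10.28 in the controls, 9.35 and 9.90 with PIAS3 and 9.82 and 10.05 with the siRNA, below both controls on all 4 transfected arrays. Its differences were -0.67 ± 0.19 and -0.37 ± 0.19 (adjusted p = 0.185 and 0.9998). NRG2 differed by 0.12 ± 0.13 and 0.16 ± 0.13.

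Among the 11 measured genes of ligand shedding, 2 were lower (7.86% of all probe sets) and 0 higher (6.0%) at an unadjusted p under 0.05 with PIAS3, and 3 lower (2.77%) and 0 higher (2.08%) with the siRNA, with list medians of -0.07 and -0.07. ADAM19, a metalloprotease, read 8.37 and 8.14 in the controls, 7.01 and 7.51 with PIAS3 and 7.85 and 7.31 with the siRNA (-0.996 ± 0.22 and -0.67 ± 0.22). RHBDF2, an inactive rhomboid protein that brings ADAM17 to the cell surface, gave -0.32 ± 0.11 and -0.45 ± 0.11, and its relative RHBDF1 -0.19 ± 0.12 and -0.34 ± 0.12. ADAM17, the main protease for TGFA, AREG, EREG and HBEGF, lay the other way at 0.40 ± 0.19 and 0.17 ± 0.19, and ADAM10, the main protease for EGF and BTC, gave -0.35 ± 0.16 and -0.28 ± 0.16. ADAM15 gave -0.06 ± 0.16 and 0.26 ± 0.16.

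Of 22 measured adaptors and early signalling genes, 4 were higher (6.0% of all probe sets) and 3 lower (7.86%) at an unadjusted p under 0.05 with PIAS3, and 1 higher (2.08%) and 0 lower (2.77%) with the siRNA, with list medians of -0.05 and 0.01. SOS1, a RAS exchange factor, read 6.94 and 6.88 in the controls, 7.52 and 7.58 with PIAS3 and 7.08 and 7.39 with the siRNA (0.64 ± 0.13 and 0.33 ± 0.13). The ERK kinase MAP2K1 gave -0.45 ± 0.15 and -0.19 ± 0.15, the exchange factor VAV2 -0.39 ± 0.11 and -0.19 ± 0.11, the adaptor NCK1 0.39 ± 0.13 and 0.16 ± 0.13, the kinase SRC 0.51 ± 0.19 and 0.37 ± 0.19, and the phosphatase PTPN11 -0.19 ± 0.11 and -0.19 ± 0.11.

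Of 12 measured receptor inhibitors and degradation genes, 3 were higher (6.0% of all probe sets) and 2 lower (7.86%) at that threshold with PIAS3, and 0 higher (2.08%) and 2 lower (2.77%) with the siRNA, with list medians of -0.00 and 0.03. SPRY2, an ERK-induced inhibitor that interacts with the ubiquitin ligase CBL, read 8.96 and 8.96 in the controls, 8.28 and 8.16 with PIAS3 and 8.46 and 8.18 with the siRNA (-0.74 ± 0.13 and -0.63 ± 0.13, adjusted p = 0.0873 and 0.495). PTPRK, a receptor phosphatase that acts on EGFR, gave -0.67 ± 0.20 and -0.77 ± 0.20. Above control with PIAS3 were the ubiquitin ligase CBLB (0.65 ± 0.23), SOCS5 (0.64 ± 0.24), and LRIG1 (0.38 ± 0.14), a membrane protein that promotes receptor degradation. With the siRNA these gave 0.37 ± 0.23, 0.39 ± 0.24 and 0.04 ± 0.14. The adaptor CD2AP gave -0.30 ± 0.16 and -0.25 ± 0.16.

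Of 15 measured endocytosis and sorting genes, 1 was higher (6.0% of all probe sets) and 1 lower (7.86%) at that threshold with PIAS3, close to the background, and 1 higher (2.08%) and 0 lower (2.77%) with the siRNA, with list medians of -0.08 and -0.02. STAM2, which binds ubiquitinated receptors on endosomes, gave 0.59 ± 0.15 and 0.36 ± 0.15, and its partner HGS -0.26 ± 0.11 and -0.07 ± 0.11. The dynamin DNM2 gave 0.25 ± 0.12 and 0.19 ± 0.12 and the clathrin adaptor subunit AP2M1 -0.25 ± 0.12 and -0.04 ± 0.12. RAB5A and RAB7A, endosomal GTPases, differed by 0.06 ± 0.10 and -0.03 ± 0.11 with PIAS3.

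Of 28 measured EGF and ERK response genes, 2 were higher (6.0% of all probe sets) and 4 lower (7.86%) at that threshold with PIAS3, and 2 higher (2.08%) and 6 lower (2.77%) with the siRNA, and the list's median was 0.02 and -0.18. EGR3 gave -0.88 ± 0.12 and -1.02 ± 0.12, only lower bounds in size since its transfected values were in the trp control range. The AP-1 subunits FOSL1 and JUN gave -0.60 ± 0.16 and -0.50 ± 0.17 with PIAS3 and -0.39 ± 0.16 and -0.70 ± 0.17 with the siRNA. JUNB, another AP-1 subunit, gave 0.73 ± 0.24 and -0.23 ± 0.24, the receptor signalling inhibitor SPRY1 0.47 ± 0.12 and 0.32 ± 0.12, and the early response gene IER3 0.03 ± 0.14 and -0.42 ± 0.14.

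**Figure D3:**
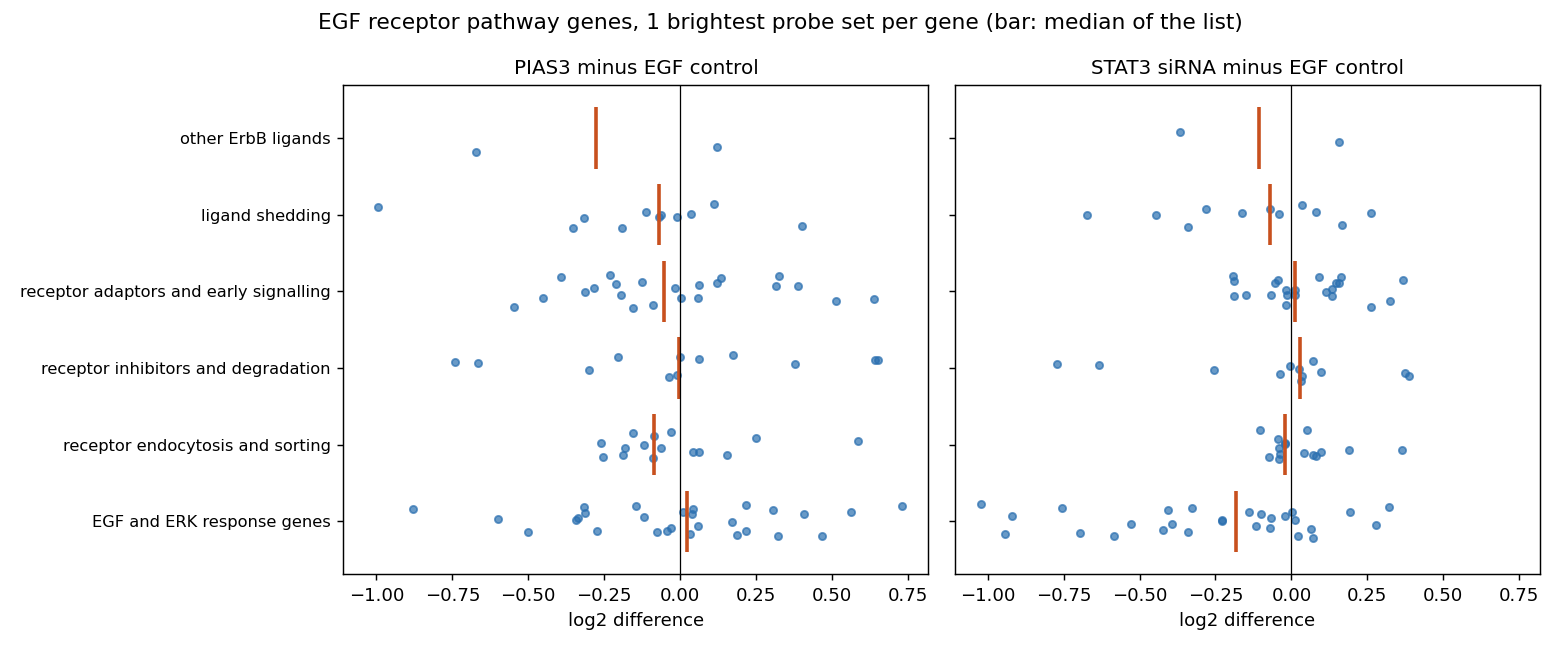
Log2 difference from control (horizontal axis) for PIAS3 (left) and the STAT3 siRNA (right), with a point for each gene's brightest probe set, a row for each pathway list and an orange bar at the list's median. List medians lie within 0.28 of 0, and the lowest points are EGR3 at -1.02 with the siRNA and ADAM19 at -0.996 with PIAS3.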

How the data were processed

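Expression was measured on 6 Affymetrix arrays. The deposited values are log2 expression, 1 per probe set and array, made with RMA per the submitters' processing notes, which give no version. RMA brings all arrays to one distribution, so a shift of most genes would be removed, and it compresses differences of dim probe sets. Software and build: not given in the sources used here. Groups and replicate numbers came from the sample titles.

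Of 22277 probe sets, the 62 array controls were left out. Symbols came from the supplied platform annotation: 19064 probe sets had 1 symbol, 1043 several and 2108 none, and only the first were named. A level compares arrays within 1 probe set, not probe sets or genes. All arrays entered one limma 3.58.1 fit (R 4.3.3, lmFit and eBayes, two-sided), with a mean per group, 3 residual and 4.27 prior degrees of freedom, and adjustment over 22215 probe sets. The fit was tested on simulated data. Arrays of a group differed with a pooled SD of 0.11 (control), 0.18 (siRNA) and 0.24 (PIAS3).

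The members, lists and tests were chosen with earlier results of these data known. Up to 4 genes per list with the smallest p for PIAS3, and 2 more for the siRNA, were named, with the 4 genes most like EGFR and like HBEGF and STAT3. MX1 was named after its values were seen. Alternatives were other normalizations, a filter, a variance trend, the replicate block, pairs of groups, averaging probe sets within genes, and dropping single arrays. Figures used matplotlib 3.10.9.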

Additional observations from a re-analysis of the deposited data

How the results depend on the processing

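For PIAS3 against control, the 22 probe sets called in all became 2 with the replicate number as a block, 2 with quantile normalization again, 39 with cyclic loess, 2 once probe sets under the 40th percentile by mean were dropped and 262 when only PIAS3 and control arrays were fitted, and 0 (without either control array) to 1232 (without PIAS3 replicate 2) with an array left out. For the siRNA against control, 1 became 0 with quantile normalization, 0 with cyclic loess and 3 when only these groups were fitted, and 0 (without siRNA replicate 2 or either control) to 5 (without siRNA replicate 1) with an array left out. For PIAS3 against the siRNA, 0 became 0 to 544, the highest without PIAS3 replicate 2. The member probe sets called stayed at 0 except for 2 (both HBEGF) for PIAS3 against control when only these groups were fitted, and 0 to 2 and 0 to 1 with an array left out for PIAS3 against control and against the siRNA, the last being ERBB3 without PIAS3 replicate 2. The replicate block changed no member's call. The numbers gave no pairing, since deviations of same-numbered arrays correlated at 0.09, -0.06 and -0.05 over probe sets. The filter left 11 of the 21 members. With 1 array left out, the other array of its group is assumed to vary like the other groups.

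Of the recomputed member differences, 768 kept direction and side of the threshold and 30 turned direction, and the cause was not tested. The rest came to pass the threshold. Those that kept or came to pass are not all separate results, since some fits were counted repeatedly. Leaving out an array of the group not compared gave the same values as fitting the compared groups alone. For PIAS3 against control, the passes of HBEGF (203821_at and 38037_at) were repeated in this way. Between PIAS3 and the siRNA, TGFA (211258_s_at) went to -0.0223 with quantile normalization, -0.0106 with median centring and -0.0142 with cyclic loess, and EGFR (201984_s_at) to -0.0002 with median centring. With an array left out, the ranges that crossed 0 for PIAS3 against control were -0.1829 to 0.0310 for EGFR (211550_at), -0.0671 to 0.2068 for EGFR (211551_at), -0.0091 to 0.0766 for ERBB3 (215638_at), -0.0161 to 0.1960 for ERBB4 (206794_at) and -0.0732 to 0.0190 for TGFA (211258_s_at). With an array left out, the ranges that crossed 0 for the siRNA against control were -0.2740 to 0.1249 for EGFR (210984_x_at), -0.4588 to 0.0121 for EGFR (211607_x_at), -0.0785 to 0.2143 for EGFR (211550_at), -0.0854 to 0.0435 for ERBB2 (216836_s_at), -0.0650 to 0.3130 for ERBB3 (202454_s_at), -0.1919 to 0.0726 for ERBB3 (215638_at), -0.2092 to 0.0372 for ERBB4 (214053_at), -0.0721 to 0.2805 for EGF (206254_at), -0.0806 to 0.0254 for TGFA (211258_s_at) and -0.0090 to 0.2426 for HBEGF (222076_at). With an array left out, the ranges that crossed 0 for PIAS3 against the siRNA were -0.2903 to 0.0026 for EGFR (211550_at), -0.2850 to 0.0307 for EGFR (211551_at), -0.0389 to 0.2257 for ERBB3 (215638_at), -0.0170 to 0.3356 for EGF (206254_at), -0.1622 to 0.5298 for TGFA (205016_at), -0.0525 to 0.0535 for TGFA (211258_s_at), -0.2964 to 0.1442 for HBEGF (38037_at) and -0.1448 to 0.1068 for HBEGF (222076_at). The largest of these turns was in the brightest TGFA probe set between PIAS3 and the siRNA. The directions of HBEGF (203821_at and 38037_at), EREG and EGFR (201983_s_at) against control and of ERBB3 (202454_s_at) with PIAS3 held wherever they were refitted. The filter dropped this ERBB3 probe set. Most alternatives could not turn these directions. The block, filter, variance trend and pairs of groups leave the differences unchanged, and the compared arrays did not overlap, so dropping 1 could not turn them. Only the other normalizations and averaging of probe sets could. Signal near background limits what can be said of EGF, BTC and ERBB4, and dim signal limits what can be said of ERBB3.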
